A study of Mus musculus with 8 samples.

Results

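The immediate early response genes described here were 10 named genes, Fos, Fosb, Jun, Junb, Egr1, Egr2, Egr3, Atf3, Ier2 and Dusp1. They were chosen by name, and all 10 were found among the 49671 genes of the deposited count table and among the 19099 genes with enough counts to be tested. The table held RNA sequencing counts of total back skin, shaved before collection, from mice 8 weeks old. Of the 8 libraries, WT replicates 1 to 4 (n = 4) carried the flg genotype wt/wt, and KO replicates 1 to 4 (n = 4) carried the flg genotype ko/ko. For strain, sex and how the ko allele was made, the sources used here give no entry, nor do they tie each library to its own mouse. The p-values therefore measure the spread between these samples, which may be technical.

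Immediate early genes are transcribed within minutes of a stimulus from factors that already sit on their promoters, without new protein synthesis. Growth factors and stress act through MAP kinases on serum response factor and its ternary complex partners, and calcium and cyclic AMP act through CREB. In skin the same genes respond to wounding, stretch, cold and delay, so their spread between samples is often read as a sign of how tissue was handled. The labels give no interval between death and preservation, and the part of handling in these values was not tested.

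Promoter sequences are shown for Fos, Fosb and Dusp1, among the 4 genes with the largest spread between libraries, for Jun, the partner of Fos, and for Egr2, which hardly varied. The bases before the transcription start came from a table of RefSeq promoters (GRCm38.p6, the same build as mm10), in which 7 of the 10 genes were matched. Each window covers up to 250 bases before the start, less any base in an annotated exon, and that of Egr2 belongs to 1 of 5 annotated starts. Capitals mark TGACG on either strand (the core of a cyclic AMP response element), the related motif TGACNTCA on the strand shown, and the serum response element (CArG box). The windows, on the plus strand for Fos and Egr2 and on the minus strand for Fosb, Jun and Dusp1, were chr12:85473640-85473889 for Fos, chr7:19310052-19310295 for Fosb, chr17:26508520-26508722 for Dusp1, chr4:95052223-95052472 for Jun and chr10:67537619-67537868 for Egr2.
Fos: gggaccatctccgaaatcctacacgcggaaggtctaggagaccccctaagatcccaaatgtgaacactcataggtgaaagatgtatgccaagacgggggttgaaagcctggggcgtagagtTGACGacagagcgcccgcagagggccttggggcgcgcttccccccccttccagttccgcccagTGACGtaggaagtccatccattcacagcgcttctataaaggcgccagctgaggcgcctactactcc
Fosb: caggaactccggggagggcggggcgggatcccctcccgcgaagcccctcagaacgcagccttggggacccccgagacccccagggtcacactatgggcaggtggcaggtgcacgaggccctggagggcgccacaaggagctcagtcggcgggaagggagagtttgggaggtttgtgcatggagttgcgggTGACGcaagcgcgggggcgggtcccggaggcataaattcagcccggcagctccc
Dusp1: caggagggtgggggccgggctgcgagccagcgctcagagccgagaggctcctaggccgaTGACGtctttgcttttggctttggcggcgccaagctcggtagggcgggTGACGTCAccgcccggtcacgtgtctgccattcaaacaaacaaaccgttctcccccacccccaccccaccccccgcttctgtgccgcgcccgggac
Jun: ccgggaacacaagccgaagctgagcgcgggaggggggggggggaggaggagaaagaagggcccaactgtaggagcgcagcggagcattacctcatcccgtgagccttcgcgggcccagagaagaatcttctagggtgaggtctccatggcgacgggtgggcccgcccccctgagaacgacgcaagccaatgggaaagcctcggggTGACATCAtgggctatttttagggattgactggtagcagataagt
Egr2: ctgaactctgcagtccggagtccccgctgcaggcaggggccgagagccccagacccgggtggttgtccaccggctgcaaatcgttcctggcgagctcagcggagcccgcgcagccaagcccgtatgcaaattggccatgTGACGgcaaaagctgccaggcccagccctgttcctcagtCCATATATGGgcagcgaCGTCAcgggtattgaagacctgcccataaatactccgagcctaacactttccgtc

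In the full windows of 250 bases, TGACG on either strand was present in 6 of 7 genes (Atf3, Dusp1, Egr2, Fos, Fosb and Junb), against 17.8% of the 32851 promoters in the table. This short motif was added after the sequences had been seen. Here and below a gene counted if any of its windows matched, whereas the shares are per promoter. Egr2 had several windows, and not all of them matched. The complete element TGACGTCA was found in Dusp1, and in 1.55% of all promoters. Allowing any base at the middle position N (TGACNTCA, which contains TGACGTCA) added Jun, against 4.61% of promoters. This motif was searched on the gene's own strand only, so its share is not comparable with those of motifs searched on both strands. A serum response element was found in Egr2, at 72 bases before the start in the window shown, against 1.47% of promoters. The AP-1 site TGANTCA was in none of the 7 (6.75% of promoters), and the EGR site GCGNGGGCG, searched on both strands, was in Fosb (4.7% of promoters). TATAAA on either strand was in Fos, at 33 bases before the start, and in 12.4% of promoters. A match describes these letters only, and elements farther upstream lie outside the window.

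Library totals ran from 18483242 to 38545957 counts, and the genes described here had between 179 and 6532 counts in a library. Counting error alone was therefore at most 7.47% (Fosb, from its lowest count of 179). Flg, the targeted gene, was 59.0 ± 10.2 CPM (reads of the gene relative to a TMM-scaled library size; SD, n = 4) in WT and 24.5 ± 2.12 CPM in KO. Every KO library lay below every WT library for Flg (edgeR adjusted p = 0.00326; two-sided exact permutation p = 0.0286, the smallest that 4 against 4 libraries allow). Epidermal keratinocyte markers summed to between 13773 and 17884 CPM in the 8 libraries, and those of skeletal muscle to between 17184 and 26114 CPM, so the libraries held skin with muscle. No marker of either list was at 0 in a library. A pair of WT libraries stood apart from the rest over all tested genes: on the first principal component (34.9% of the variance) WT replicates 1 and 4 lay at -44.0 and -38.7, WT replicates 2 and 3 at -2.89 and 1.22, and KO between 10.7 and 26.9.

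Did Flg genotype move the immediate early genes? None of the 10 differed between KO and WT past the test. In edgeR's quasi-likelihood test with Benjamini-Hochberg adjustment over all genes, 0 of 10 passed an adjusted p of 0.05, and 0 of 10 had an unadjusted p under 0.05. Of all tested genes 1.41% passed (0.712% higher and 0.702% lower in KO), and 19.5% had an unadjusted p under 0.05. The fold change was above 0 for 5 of the 10 and below 0 for 5, with a median log2 fold change of -0.03, against -0.02 over all tested genes. The ranges of the genotypes overlapped for each of the 10, whereas 11.4% of tested genes had no overlap. DESeq2 also called 0 of the 10, and limma voom with quality weights per library called 1, Egr3, as described below. Over all 19099 tested genes DESeq2 called 1177 and voom 2535, against 270 by edgeR.

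**Figure D1:**
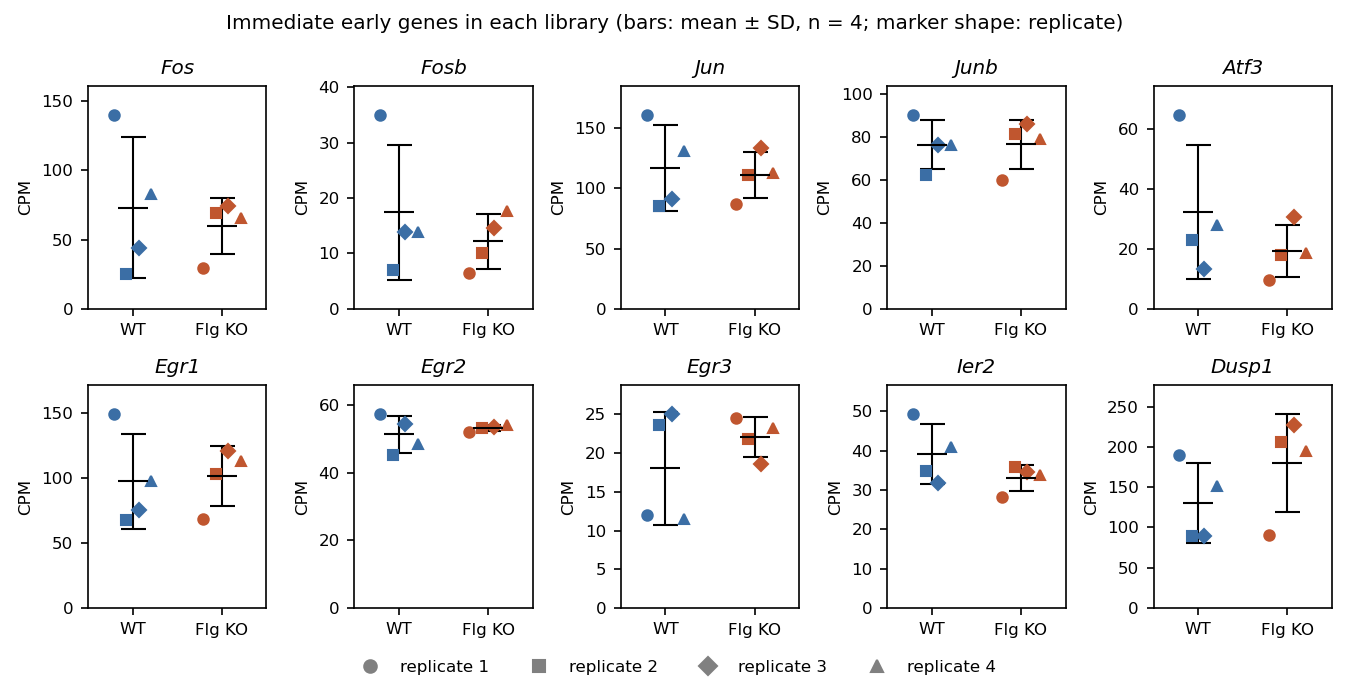
CPM of each of the 10 genes in each library, WT in blue and KO in orange; marker shape gives the replicate and bars give mean ± SD (n = 4 per genotype). WT replicate 1 is the highest library for 8 genes, and the genotypes overlap in every panel.

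Fos (chr12:85473890-85477273, plus strand, 4 exons) encodes the founding member of the AP-1 transcription factors, which bind DNA as pairs of basic leucine zipper proteins. It had 140.0, 25.3, 43.8 and 83.1 CPM in WT replicates 1 to 4 and 29.7, 68.9, 74.0 and 65.5 CPM in KO replicates 1 to 4. WT libraries lay both above and below the whole KO range, with a 5.54-fold span within WT and a 2.49-fold span within KO. The log2 fold change of KO over WT was -0.29 ± 0.52 (SE, edgeR adjusted p = 0.788), with a 95% interval from -1.48 to 0.89. Without WT replicate 1 it was 0.23 (adjusted p = 0.86), so that library set its sign. Exon counts, here and below, are blocks left after overlapping annotated exons were merged. They can differ from the exons of a single transcript.

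Fosb (chr7:19302696-19310051, minus strand), a close relative of Fos, shared with Fos the highest and lowest WT library and the lowest KO library, at a lower level. It had 35.0, 7, 13.8 and 13.8 CPM in WT and 6.40, 10.1, 14.6 and 17.6 CPM in KO. WT replicate 1 was 3.03 times the mean of the other WT libraries, and KO replicate 1 was 0.454 times the mean of the other KO libraries. For Fosb the log2 fold change was -0.52 ± 0.48 (SE, adjusted p = 0.588), and 0.07 without WT replicate 1.

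Atf3 (chr1:191170296-191218039, minus strand, 5 exons) encodes a stress-induced factor that pairs with Jun proteins. It was at 64.8, 23.1, 13.4 and 28.0 CPM in WT and 9.53, 18.1, 30.7 and 18.7 CPM in KO. The highest library, WT replicate 1, was 6.80 times the lowest, KO replicate 1, the widest span of the 10 genes. The log2 fold change was -0.75 ± 0.50 (SE, adjusted p = 0.446), with a 95% interval from -1.90 to 0.40. With 1 library left out it ran from -1.07 (without KO replicate 3) to -0.17 (without WT replicate 1).

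The Jun partners spread less. Jun (chr4:95049034-95052222, minus strand, 1 exon), the main partner of Fos, had 161, 85.1, 90.9 and 131 CPM in WT and 87.2, 111, 133 and 113 CPM in KO. Its log2 fold change was -0.08 ± 0.20 (SE, adjusted p = 0.866), with a sign that turned positive without WT replicate 1 (0.11) or KO replicate 1 (0.03). Junb (chr8:84974484-84978718, minus strand, 3 merged exon blocks) encodes a weaker activator that can oppose Jun. Junb lay between 59.9 and 90.3 CPM in all 8 libraries, with a log2 fold change of 0.01 ± 0.13 (adjusted p = 0.987). The exons of Jun and Junb share 7.28% and 7.52% of their bases with antisense genes, Junos and Prdx2. The strand setting of the counting was not stated in these sources, so reads there cannot be assigned with certainty.

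Per length, Fos made up a changing part of its family while Jun was a steadier part of its own. Of the summed CPM per kb of Fos, Fosb, Fosl1 and Fosl2, Fos held from 33.7% (KO replicate 1) to 63.6% (WT replicate 1). The mean share of Fos was 49.5% ± 12.6 (SD, n = 4) in WT and 45.7% ± 8.09 in KO. Fosl2, a longer-lived relative, took most of the rest, at 43.2% ± 11.4 in WT and 48.8% ± 8.49 in KO. Among Jun, Junb and Jund, Jun held between 31.1% and 36.3% in every library. Junb ran more widely, from 27.0% to 38.9%, and so did Jund, from 27.8% to 39.1%. The differences between genotypes in these shares were smaller than the SD within WT, other than that of Jun.

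EGR proteins are zinc finger factors that bind GC-rich sites, and Egr1 is the most widely induced of them. Egr1 was at 149, 68.0, 75.4 and 98.2 CPM in WT and 68.3, 103, 121 and 113 CPM in KO. As for Fos, WT replicate 1 was highest and WT replicate 2 and KO replicate 1 were lowest, and the genotypes overlapped. For Egr1 the log2 fold change was 0.06 ± 0.26 (SE, adjusted p = 0.926), with a 95% interval from -0.52 to 0.63.

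Egr2 (chr10:67535475-67542188, plus strand, 5 exons), which is known for its part in myelination and in T cells, hardly varied. It lay at 57.4, 45.2, 54.6 and 48.6 CPM in WT and 52.2, 53.2, 53.5 and 54.3 CPM in KO. The KO libraries spanned 1.04-fold and the WT libraries 1.27-fold. For Egr2 the log2 fold change was 0.05 ± 0.09 (SE, adjusted p = 0.772), and its 95% interval from -0.14 to 0.24 was the narrowest of the 10.

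Egr3 (chr14:70077445-70080157, plus strand, 2 exons), a related EGR factor, ran in the other direction. It was at 12.02, 23.6, 25.0 and 11.5 CPM in WT and 24.6, 21.9, 18.6 and 23.3 CPM in KO. WT replicates 1 and 4, where Fos was highest among WT, had the lowest Egr3, and KO replicate 1, where Fos was lowest among KO, had the highest Egr3 of KO. Per kb, the ratio of Egr1 to Egr3 was 3.92, 0.911, 0.951 and 2.70 in WT and 0.878, 1.49, 2.05 and 1.54 in KO. The log2 fold change of Egr3 was 0.30 ± 0.26 (SE, edgeR adjusted p = 0.555). With limma voom, which weights libraries by quality, it was 0.70 (adjusted p = 0.0389), while over the other 15 alternatives Egr3 was not called.

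Ier2 (chr8:84661331-84662852, minus strand, 1 exon) encodes a small nuclear protein of the immediate early class. It lay between 31.8 and 49.3 CPM in WT and between 28.1 and 35.7 CPM in KO, a log2 difference of -0.25 ± 0.14 (SE, edgeR adjusted p = 0.347) with the lowest adjusted p of the 10.

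Dusp1 (chr17:26505590-26508519, minus strand, 2 merged exon blocks) encodes a phosphatase that switches off p38, JNK and ERK kinases. The gene is also induced by glucocorticoids. It had 190.2, 89.9, 88.7 and 152 CPM in WT and 91.1, 206, 226 and 195 CPM in KO. KO replicates 2, 3 and 4 lay above every WT library, and KO replicate 1 lay among the lowest, beside WT replicates 2 and 3. The log2 fold change was 0.47 ± 0.33 (SE, adjusted p = 0.464), with a 95% interval from -0.27 to 1.21. Without KO replicate 1 it was 0.69, with an adjusted p of 0.250, the lowest over its 16 alternatives.

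**Figure D2:**
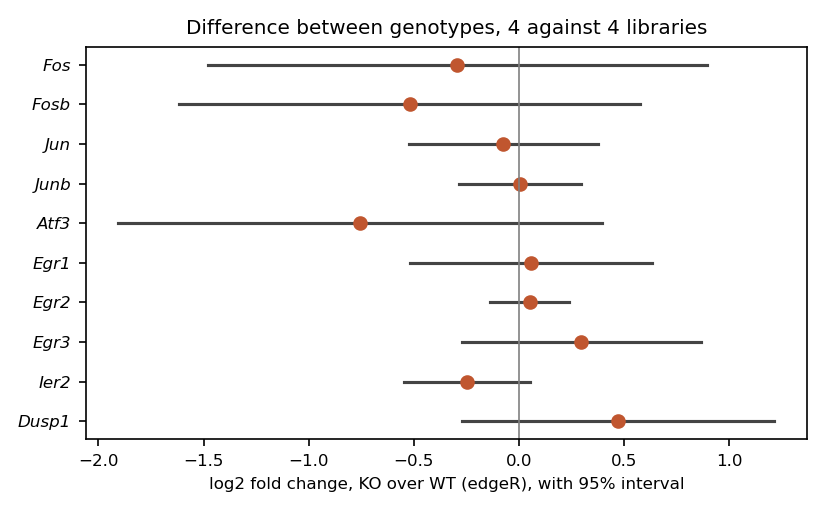
Log2 fold change of KO over WT for each of the 10 genes (points) with its 95% interval (lines), from edgeR on 4 against 4 libraries. Every interval includes 0, and the interval of Egr2, from -0.14 to 0.24, is the narrowest.

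Levels per length put Dusp1 first, at 57.5 CPM per kb of exon over the 8 libraries, with a pooled within-genotype SD of 20.5. Jun (35.8 ± 8.97), Junb (33.3 ± 4.99) and Fos (28.2 ± 16.4) came next, and neighbours among these 3 differed by less than the larger of their SDs. Ier2 (23.7 ± 3.90) and Egr1 (22.2 ± 6.85) did not differ beyond their spread either, nor did Egr2 (15.4 ± 1.17), Egr3 (14.2 ± 3.85) and Atf3 (11.96 ± 7.91). Fosb was the lowest, at 2.37 ± 1.49 CPM per kb, and its highest library (5.60) exceeded the lowest library of Atf3 (4.43). Lengths here and above are those deposited, over the merged exons of all annotated transcripts. The order and the ratios per kb depend on that annotation.

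**Figure D3:**
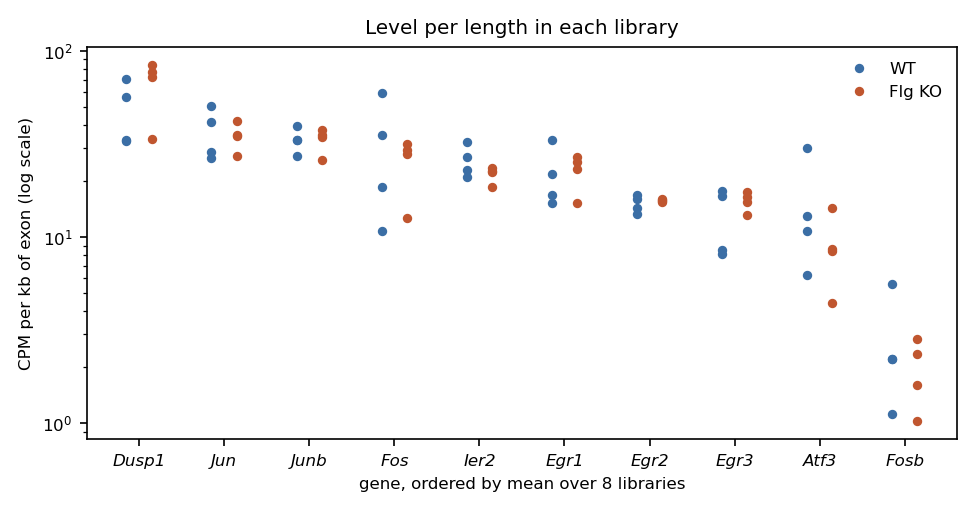
CPM per kb of exon on a log axis for each gene and library, WT in blue and KO in orange, with genes ordered by their mean. Dusp1 leads at a mean of 57.5 and Fosb is last at 2.37, and the points of neighbouring genes overlap.

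Most of these genes spread widely between libraries of one genotype. The within-genotype SD of log2 CPM was 0.88 for Fos, 0.82 for Atf3, 0.81 for Fosb, 0.58 for Dusp1, 0.44 for Egr3, 0.44 for Egr1, 0.36 for Jun, 0.23 for Junb, 0.22 for Ier2 and 0.11 for Egr2. The median over the 10 was 0.44, against 0.20 over all 19099 tested genes and 0.15 over the 10470 genes expressed at the level of Fosb or above. Of the 10, 7 were in the 10% of those 10470 genes with the largest SD (above 0.29), namely Atf3, Dusp1, Egr1, Egr3, Fos, Fosb and Jun. Over all 19099 tested genes, where weakly expressed genes spread more, 4 of the 10 (Fos, Fosb, Atf3 and Dusp1) were in the 10% with the largest SD (above 0.47). Other lists spread as much or more. The median SD was 0.47 for glucocorticoid-induced genes, with 7 of 14 in that 10% of all tested genes, and 0.51 for white adipocyte markers, with 7 of 12. It was 0.57 for hair shaft and follicle markers (5 of 6 tested), 0.70 for sebaceous gland markers (5 of 8) and 0.75 for melanocyte markers (5 of 6). Among the genes at or above the level of Fosb, Fos stood at the 99.8th percentile and Egr2 at the 29.5th. At that level, the same 7 genes stayed in the top 10% without WT replicate 1, and likewise without KO replicate 1. Without both libraries, an alternative added after seeing the data, 5 did (Atf3, Dusp1, Egr3, Fos and Fosb).

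**Figure D4:**
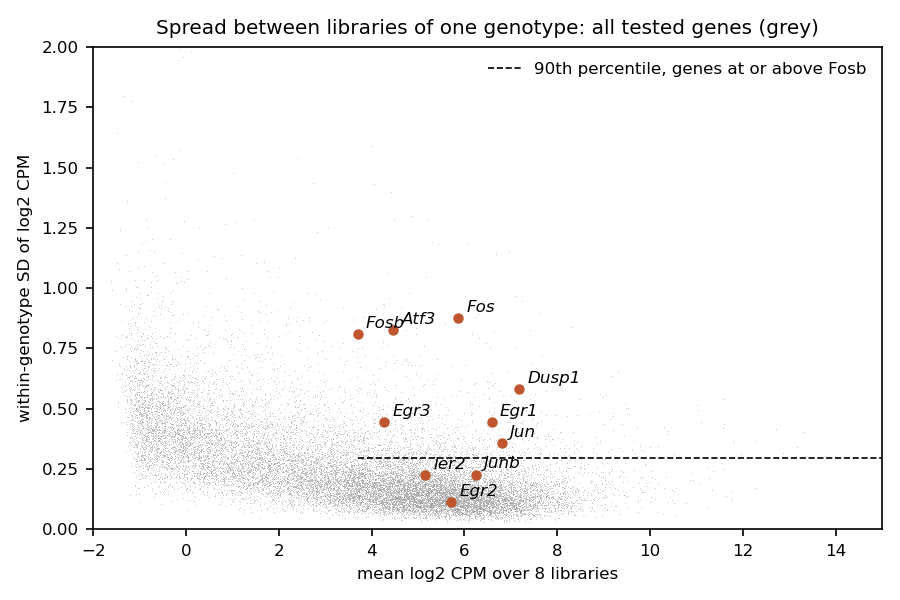
Within-genotype SD of log2 CPM against mean log2 CPM for all tested genes (grey) and the 10 immediate early genes (orange). The dashed line is the 90th percentile, 0.29, of genes at or above the level of Fosb, and 7 of the 10 lie above it; the vertical axis ends at 2.

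WT libraries were more spread than KO libraries for 8 of the 10 genes, and for 80.7% of the 10470 genes at or above the level of Fosb. Without WT replicate 1 this held for 5 of the 10 (78.8% of those genes), and without KO replicate 1 for 10 of the 10 (83.5%). Without both libraries it held for 10 of the 10 (81.4%).

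The libraries took a common order for most of these genes. WT replicate 1 was the highest of all 8 libraries for 8 of the 10 (Atf3, Egr1, Egr2, Fos, Fosb, Ier2, Jun and Junb), against 19.6% of tested genes. Among KO, replicate 1 was the lowest for 9 of the 10, every gene but Egr3, against 24.9% of tested genes. WT replicate 2 was the lowest of WT for 6 of the 10, against 29.3% of tested genes. The mean of the 10 genes, relative to its average over libraries, was 0.60, -0.38, -0.21 and 0.07 log2 units in WT replicates 1 to 4 and -0.50, 0.05, 0.24 and 0.14 in KO replicates 1 to 4. The libraries with the lowest and highest means thus came from KO and WT respectively, with the other 6 libraries interleaved between them.

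**Figure D5:**
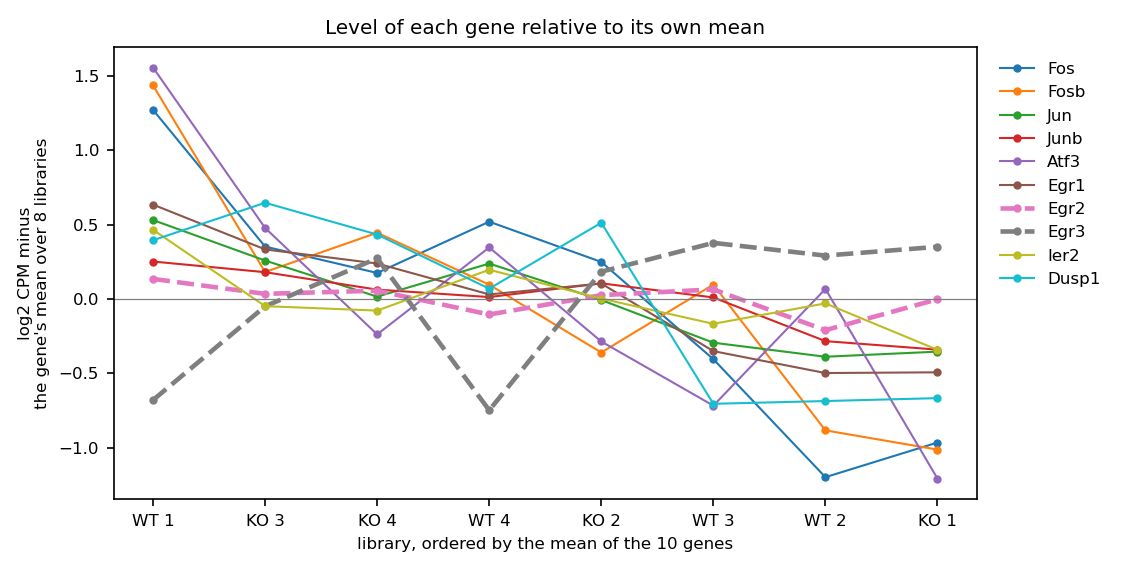
Log2 CPM of each gene minus its own mean over the 8 libraries, with libraries ordered by the mean of the 10 genes. Most lines fall from WT replicate 1 to KO replicate 1, while Egr2 (dashed) stays near 0 and Egr3 (dashed) is lowest in WT replicates 1 and 4.

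Several measures were set beside this order, and their part in it was not tested. Depth did not follow it: KO replicate 1, at 38545957 counts, and WT replicate 1, at 34263154, were the deepest libraries and stood at opposite ends. The 5 red blood cell genes, all above 0 in every library, had the same extremes, and no other cell type list had both. Their summed levels were 136, 63.7, 128 and 111 CPM in WT and 56.5, 106, 100.3 and 103 CPM in KO. Between the ends the order differed, with WT replicate 3 next to the highest for red blood cell genes. Markers of skeletal muscle (17184 CPM), smooth muscle and pericytes (1358 CPM) and sebaceous gland (826 CPM) were lowest in WT replicate 1. The 6 Schwann cell markers were also highest in WT replicate 1, at 803 CPM, and lowest in WT replicate 2, at 362 CPM. White adipocyte markers summed to between 4422 and 8045 CPM in WT and between 6419 and 8267 CPM in KO, highest in KO replicate 1. Of these 12 markers 11 were above 0 in KO over WT and 9 had an unadjusted p under 0.05 (median of the 12 on the log2 scale 0.78), while 0 passed the adjusted edgeR test. All 30 cytosolic ribosomal protein genes were below 0, with a median of -0.29, while 46.7% of all tested genes were above 0. Of the 30, 14 had an unadjusted p under 0.05 and 0 passed the adjusted edgeR test (lowest adjusted p = 0.108). Mitochondrially encoded transcripts were highest in KO replicate 1 too, at 29402 CPM, and lowest in WT replicate 3, at 16155 CPM. In whole tissue, fewer cells of a type and less RNA per cell cannot be told apart.

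How alike a gene ran to the 10 was measured by Pearson's coefficient over the 8 libraries of log2 CPM centred within genotype. Against the mean of the other 9, Egr1 stood at 0.998, Jun at 0.942, Fos at 0.935, Dusp1 at 0.927, Junb at 0.926, Ier2 at 0.903, Fosb at 0.900 and Atf3 at 0.839. Egr2 stood at 0.614 and Egr3 at -0.786. Outside the 10, the genes most like their mean were Zfp410 (0.990), Nlrp3 (0.988), B4galt2 (0.984), Lgi2 (0.977), Sin3b (0.976), Zfp469 (0.975), Txndc11 (0.972) and Cdr2l (0.970). These values are a description over 8 shared libraries. The SD of Zfp410 was 0.10 log2 units, so it shared the order of the libraries and not the size of the swings. Nlrp3, the inflammasome sensor, had 3.76, 1.96, 2.27 and 2.86 CPM in WT and 3.53, 5.19, 5.34 and 5.13 CPM in KO.

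Other genes of the immediate early class were read from 3 lists. Beside the counts of these and later lists stand those over all 19099 tested genes: 270 by edgeR, 1177 by DESeq2 and 2535 by voom. Among other AP-1 and ATF/CREB family genes 0 of 20 passed (10 above 0, 10 below, 2 at an unadjusted p under 0.05; DESeq2 called 1 and voom 2). Batf3, a factor of dendritic cell development, was at -0.91 ± 0.21 (SE, edgeR adjusted p = 0.0625) and Atf7 at 0.24 ± 0.08 (adjusted p = 0.162). Among 17 tested other transcription factors, 1 rose and 1 fell (7 at an unadjusted p under 0.05; DESeq2 called 4 and voom 7). Klf10, a TGF-beta-induced repressor, was at 88.4 ± 13.7 CPM in WT and fell to 56.6 ± 7.31 in KO (log2 fold change -0.64 ± 0.13, SE, edgeR adjusted p = 0.0432). Bhlhe40, a repressor tied to the circadian clock, rose from 61.7 ± 1.67 to 83.6 ± 10.5 CPM (adjusted p = 0.0481). Both calls ended when WT replicate 1, WT replicate 4 or any KO replicate was left out (Klf10 adjusted p between 0.0531 and 0.14, Bhlhe40 between 0.0751 and 0.153). Both also ended with mean adipocyte marker level as a covariate (adjusted p = 0.247 for Klf10 and 0.155 for Bhlhe40). In that setting 0 of all tested genes were called. The log2 fold changes with and without the covariate were -0.69 ± 0.20 and -0.64 ± 0.13 (SE) for Klf10. For Bhlhe40 they were 0.57 ± 0.13 and 0.44 ± 0.09 (SE).

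Among 37 effectors and feedback genes 1 rose, the clock gene Per1, which serum, light and glucocorticoids induce at once. In that list 12 of 37 had an unadjusted p under 0.05, and DESeq2 called 8 and voom 10. Per1 was at 99.7, 114, 95.8 and 76.2 CPM in WT and 173, 157, 174 and 182 CPM in KO, with no overlap. Its log2 fold change was 0.83 ± 0.11 (SE, edgeR adjusted p = 0.0151). The call of Per1 ended without KO replicate 2 (0.0545) or 4 (0.0673) and with mean adipocyte marker level as a covariate (0.131). With that covariate its log2 fold change was 0.89 ± 0.19 (SE). KO replicate 1, the lowest of the KO libraries for 9 of the 10 genes, was thus at the level of the other KO libraries for Per1. The SD of Per1 within genotype was 0.18.

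Of the 74 tested genes of these 3 lists, 10 (13.5%, near the background of 10%) were in the 10% of all tested genes with the largest within-genotype SD. They are named as a description, after their values were seen. They were Fosl1, Nfil3, Nr4a1, Nr4a3, Npas4, Dusp4, Rgs1, Ccn1, Gadd45g and Ptgs2. Npas4 had as few as 3 counts in a library, where counting error is large. Ccn1, a matricellular protein induced by serum and stretch, had 121, 40.8, 29.8 and 92.9 CPM in WT and 82.4, 188, 222 and 194 CPM in KO (log2 fold change 1.27 ± 0.48, SE, edgeR adjusted p = 0.211). Gadd45g, a stress-response gene, had 44.1, 12.6, 14.4 and 42.4 CPM in WT and 34.3, 51.6, 73.2 and 52.0 CPM in KO. For both, KO replicate 1 was the lowest of KO and WT replicate 1 the highest of WT, as for the Fos genes. The orphan receptor gene Nr4a1 differed, with its highest value in KO replicate 3 (95.2 CPM) and with WT replicate 2, low for Fos, the highest of WT (56.2 CPM). Ptgs2, the inducible cyclooxygenase, was also highest in WT replicate 2, at 6.57 CPM.

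Upstream and neighbouring lists gave few calls. The list of serum response factor and its regulators, which also held cytoskeletal genes, had 0 of 13 called by edgeR (2 at an unadjusted p under 0.05, 2 by DESeq2 and 2 by voom). The smallest p in it belonged to the cytoskeletal genes Flna (0.52 ± 0.12, SE) and Vcl (0.59 ± 0.16). MAP kinase cascade genes had 0 of 25 called (4 at an unadjusted p under 0.05, 1 by DESeq2 and 4 by voom), with Mapk3, which encodes ERK1, at -0.26 ± 0.08 (SE, edgeR adjusted p = 0.113). Heat shock and chaperone genes had 0 of 14 called, 0 at an unadjusted p under 0.05 and 0 by DESeq2 or voom, with Hspa8 at 0.25 ± 0.14 (adjusted p = 0.342). Glucocorticoid-induced genes had a median log2 fold change of 0.33, against -0.02 over all tested genes. In this list, which shares Per1 with the effectors, 6 of 14 had an unadjusted p under 0.05, and DESeq2 called 4 and voom 2. By edgeR 2 of 14 were higher, 1 of them Per1. The other was Errfi1, an inhibitor of the EGF receptor, which was at 100.4 ± 30.6 CPM in WT and rose to 278 ± 93.1 in KO (log2 fold change 1.47 ± 0.28, SE, edgeR adjusted p = 0.0468). It was also the only one of 9 genes of the EGF receptor list to pass in edgeR. In that list 4 had an unadjusted p under 0.05 (19.5% of all tested genes), and DESeq2 called 2 and voom 2. Errfi1 was lowest of KO in replicate 1 (167 CPM) and highest in replicate 3 (395 CPM), as were Fos, Jun, Egr1 and Dusp1. Its call ended when any one library other than WT replicate 3 or KO replicate 1 was left out (adjusted p between 0.0663 and 0.135). The call also ended with no filter on low counts (0.137) and with the adipocyte covariate (0.0908). With that covariate the log2 fold change of Errfi1 was 2.13 ± 0.37 (SE). All of these lists and genes share the same 8 libraries, so their values are not independent of each other.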

How the data were processed

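The 10 genes and all lists were chosen with earlier results of these data known. Reads were aligned to mm10 with GSNAP and counted with featureCounts (1.6.2), per the submitters' processing notes. The authors deposited raw counts per gene with exon lengths; the strand setting and the treatment of multiply mapped reads were not stated there. The labels name both a SMART and a directional library kit. Replicates were numbered in accession order. The 92 spike-in entries, with at most 3 counts in a library, were left out. In edgeR (4.0.16, R 4.3.3) genes were filtered by filterByExpr, scaled by TMM and tested by quasi-likelihood with genotype as the only term. Changes were called at an adjusted p of 0.05; the fit was tested on simulated data. Log2 CPM used a prior count of 2. DESeq2 (1.42.0), limma voom (3.58.1), other scalings and filters, an adipocyte covariate and leaving out each library were alternatives. Text names the 10 genes, Flg and the 8 most alike genes. Of the lists it names genes past the test or with the smallest p (up to 3 per list). Also named are 10 list genes of large spread, chosen after their values were seen. Family relatives of Fos and Jun and genes that overlap Jun and Junb are named too.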

Additional observations from a re-analysis of the deposited data

Results flagged for a closer look

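Among 56 groups of 4 libraries checked for a single library far from the others, 1 was found, and chance alone gives about 1 in 20. Creb3l2, a CREB-family factor, was at 85.5 CPM in KO replicate 4, while the other KO libraries lay between 76.8 and 77.3 CPM.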

How the results depend on the processing

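No paired analysis was possible because the labels number no replicates. The count of genes called over all genes, 270, was 502 with no filter on low counts, 1177 with DESeq2, 2535 with limma voom, 0 with mean adipocyte marker level added to the edgeR fit, and from 11 (without KO replicate 2) to 1325 (without WT replicate 3) with 1 library left out. The count of immediate early genes called was 0 except for 1, Egr3, with limma voom. With the adipocyte covariate Flg was at -1.32 (edgeR adjusted p = 0.0695). The cause of these changes was not tested. Signs that changed belonged to fold changes that passed no test in either setting. With the adipocyte covariate these were Fos 0.028, Jun 0.19, Junb -0.00608, Egr2 -0.080, Egr3 -0.044, Atf3 0.23 and Creb3l2 -0.012. Junb was at -0.00116 with upper-quartile scaling and -0.00912 with voom. With 1 library left out, the log2 fold changes ran for Fos from -0.58 to 0.23, for Fosb from -0.78 to 0.074, for Jun from -0.20 to 0.11, for Junb from -0.075 to 0.11, for Egr1 from -0.078 to 0.33 and for Egr2 from -0.000953 to 0.10. Ier2 and Dusp1 kept their sign in all 16 alternatives.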
